A study of Rattus with 18 samples.

Results

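Glomeruli taken on day 2 after injection of an antibody against Thy1 were compared with glomeruli of saline-injected control rats. The comparison was defined by the sample titles, and it and its gene lists were chosen with earlier results of these data known. It takes 6 of the 18 arrays of a time course, 3 titled anti-Thy1 model killed on day 2 and 3 titled normal control (day 0). Both groups were rats of strain label SD and 200 g, and the tissue label was glomerulus in both. Per the labels, 30 rats received the antibody and 6 received saline. For each day, 3 glomeruli were taken from every one of 6 rats, and 1.65 µg of RNA per array was amplified linearly and labelled with Cy3. Which rats stand behind which array is not labelled. The p-values therefore rest on the spread among 3 arrays a group, some of which may be technical, and the precision is limited by that number. Whole glomeruli hold several cell types, and in such bulk RNA fewer cells of a type and less RNA per cell cannot be told apart.

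Thy1 is a small surface protein that, in the rat glomerulus, marks mesangial cells, the contractile cells between the capillary loops. An antibody against it binds these cells, fixes complement and lyses them, and the loss of mesangial cells (mesangiolysis) is followed by an influx of platelets and leukocytes and then by division of the remaining mesangial cells and deposition of matrix. The model is used for mesangioproliferative glomerulonephritis, and it heals without further treatment.

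Each value below is a log2 intensity minus the 75th percentile of its own array, so that 0 is a spot at that percentile. Values of different probes are not on 1 scale, and only the same probe is compared between arrays. A gene was called when its adjusted p (limma, fitted on all 18 arrays, Benjamini-Hochberg over 23183 genes and transcripts) was under 0.05, and errors beside log2 differences are standard errors (SE) of that fit with n = 3 arrays a group. Where no array of a group read a gene well above background, the difference is given as at least a certain fold. For that bound, the dim probe's value on each array was raised to the array's detection limit (its lowest signal that was well above background) if it lay below it, and the means were then compared.

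Control replicate 4 stood apart from the other controls. Over 21735 probes that every one of the 18 arrays read well above background, its Pearson correlation with the other controls was 0.952 and 0.958, while those 2 reached 0.991 with each other and the day 2 arrays reached 0.984 to 0.991 among themselves. Its correlation with the day 2 arrays was 0.855 to 0.878, against 0.936 to 0.958 for the other controls. The raw 75th percentile was also lower in the controls (181 to 229) than on day 2 (318 to 408), and its part in the results was not tested. The controls were scanned on another day and lay on another slide than the day 2 arrays, so scan day, slide and group cannot be told apart in this comparison. Days 1 and 3, scanned on the controls' scan day, are therefore given beside the results as differences from the same 3 controls.

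Day 2 differed from the controls in 10650 of 23183 genes and transcripts (45.9%), of which 4824 were higher (20.8%) and 5826 lower (25.1%). The falls were the larger: 3914 of the lower genes differed by more than 2-fold, against 1726 of the higher ones. Control replicate 4 was the lowest control in 84.4% of the genes called higher and the highest control in 83.7% of those called lower, against 53.5% and 35.0% over all genes tested. Without it 7136 genes were called (30.8%), 2772 higher (12%) and 4364 lower (18.8%). Of the genes called with all 3 controls, 2734 of the higher and 4237 of the lower were called again. Scaled to the array median, 55.8% of genes were called (39.1% higher and 16.7% lower), with quantile normalization 41.9% (22.4% and 19.5%) and scaled to 12 reference genes 44.6% (10.1% and 34.5%). The share of higher among the called genes was 45.3%, and it was 70.1% after scaling to the array median, 53.4% after quantile normalization and 22.7% after scaling to 12 reference genes. Those scalings put the median of all genes at 0.42, 0.08 and -0.26, against 0.05 here, so a small difference has no settled direction. That holds for the medians of the podocyte, endothelial, tubule, apoptosis, growth factor, glycolysis, fatty acid oxidation, basement membrane, eicosanoid, cytokine, renin and erythrocyte lists, which lie near 0 and change sign with the scaling. The gene lists hold 733 genes, of which 709 were named by a probe and 648 were well above background on all arrays of at least 1 day and were tested. A gene dim on the controls passes that filter only through the day on which it is high, so the counts below cover the tested members and not all listed ones. Over the 648, 262 rose and 45 fell (180 and 30 without control replicate 4). A normexp background correction left 1487 called genes, and 14064 when 2 arrays of other days with compressed values were left out of its fit.

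The mesangial markers split on day 2: Thy1 itself and Itga8, an integrin subunit of mesangial cells, were low, while most of the other markers were not called. Of the 14 mesangial markers, all well above background on all 6 arrays, 3 fell, 1 rose and 10 were not called. The shares that fell and rose were 21.4% and 7.1%, against 25.1% and 20.8% of all genes. In 4 members all day 2 arrays lay below all controls, as in 29.9% of all genes, and in 3 above. The list had a median difference of -0.44 (-0.48 without control replicate 4, when 2 fell and none rose). The scaling changed this: scaled to the array median, 2 rose and 2 fell, and the median was -0.07. With quantile normalization none rose and 3 fell (median -0.50), and after reference gene scaling none rose and 6 fell (median -0.75). The antibody's target is given first. Thy1 read -0.02, 0.46 and -0.70 on control replicates 2, 4 and 5 and -1.63, -2.51 and -1.64 on day 2 replicates 2, 3 and 4. No day 2 array reached the lowest control, and Thy1 fell by 1.84 ± 0.59 (log2, SE; 3.57-fold lower, adjusted p = 0.0199). Without control replicate 4 the difference was -1.56 with adjusted p = 0.091. The values against the same controls were -3.25 on day 1 and -0.46 on day 3, which puts the 3 day 2 arrays between those of the neighbouring days by mean.

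Itga8 read -1.04, -0.23 and -1.84 on the controls and -3.49, -4.15 and -2.71 on day 2, again with no overlap. It fell by 2.41 ± 0.48 (adjusted p = 0.00172), and the fall was called without control replicate 4 as well. Agtr1a, the angiotensin II receptor of mesangial and smooth muscle cells, fell by 0.70 ± 0.23 (adjusted p = 0.023) and was not called after scaling to the median. Pdgfrb, the receptor of the mesangial growth factor PDGF-B, read 1.89, 0.91 and 1.17 on the controls and 0.53, 0.34 and 0.93 on day 2, and its difference of -0.72 ± 0.39 did not pass the test (adjusted p = 0.14). Its groups overlapped at 1 control and 1 day 2 array. Desmin (Des, -0.20), Gata3 (-0.87) and Rgs5 (-0.70) were not called either. The endothelin receptor Ednra differed by 0.01 ± 0.28 on its brighter probe and was not called, but its other probe differed by -1.16 ± 0.21. Itga1, the collagen-binding integrin subunit of mesangial cells, rose by 0.77 ± 0.24 (adjusted p = 0.0164), and that call was lost without control replicate 4 (adjusted p = 0.087) and under quantile normalization.

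The probes behind these values are 60-base oligonucleotides, and the first 30 bases of those that measured the antibody's target and the most reduced mesangial marker are shown with the positions the headers give in build rn4. Exon and UTR annotation of that build was not used here. The Thy1 probe covers chr8:47031186-47031646 on the + strand, a span longer than the probe. The Itga8 probe covers chr17:86532664-86532723 on the - strand.
Thy1: atcccacaagctccaataaaactatcaatg
Itga8: atgaaggagaaggagcttacgaagctgaac

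**Figure D1:**
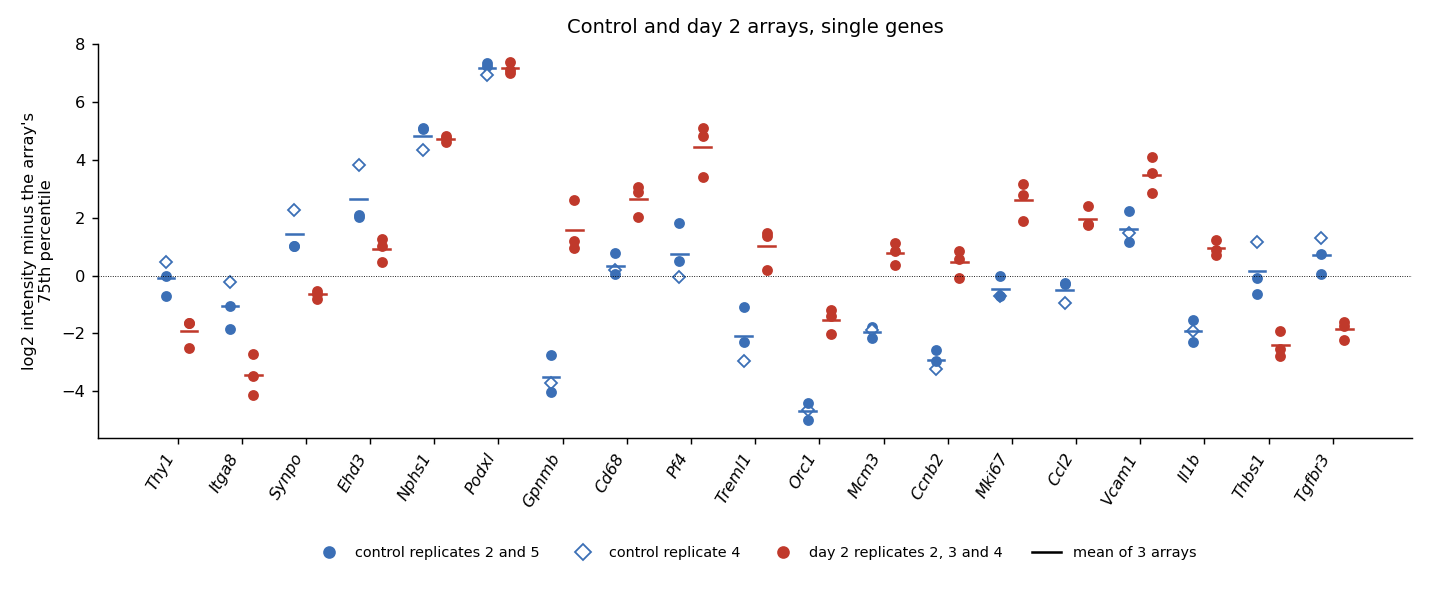
Log2 intensity minus the array's 75th percentile (vertical axis) for 19 genes, with every array shown: blue circles are control replicates 2 and 5, the open diamond is control replicate 4, red circles are the 3 day 2 arrays, and a bar is the mean of 3 arrays. Thy1, Itga8, Synpo, Ehd3, Thbs1 and Tgfbr3 lie lower on day 2, Nphs1 and Podxl overlap between groups, and the other 11 genes lie higher on day 2.

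Contractile genes that mesangial cells share with smooth muscle moved in both directions. Of 9 smooth muscle genes tested, 3 rose and 2 fell, and the median was 1.05 (0.80 without control replicate 4, with 1 rise and 2 falls). The shares that rose and fell were 33.3% and 22.2%, against 20.8% and 25.1% of all genes. Tagln, which encodes the actin-binding protein SM22, read -0.23, -0.53 and -0.38 on the controls and 2.30, 2.10 and 2.36 on day 2. The groups were far apart and each was tight, yet the fit, whose error draws on all 6 days, gave 2.64 ± 0.88 with adjusted p = 0.024, and 0.074 without control replicate 4. Actg2, an actin of smooth muscle, rose by 1.06 ± 0.28 (adjusted p = 0.00706). Myh11, the smooth muscle myosin heavy chain, read 0.60, 0.36 and 0.25 on the controls and -0.62, -0.47 and -0.44 on day 2, a fall of 0.91 ± 0.17 (adjusted p = 0.00128). Another, dimmer Myh11 probe differed by 0.18.

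The labelled tissue was checked against the other cells of the glomerulus. Podocyte markers were well above background on all 6 arrays in 21 of 22 cases, and most were not called: Nphs1, which encodes the slit diaphragm protein nephrin, differed by -0.11 ± 0.21 and Podxl (podocalyxin) by -0.02 ± 0.17. Synpo, which encodes the actin-binding protein synaptopodin of podocyte foot processes, was different. It read 1.02, 2.25 and 1.02 on the controls and -0.53, -0.62 and -0.79 on day 2, so that control replicate 4 was the high array. It fell by 2.08 ± 0.33 (adjusted p = 0.000708), and by 1.67 without that control. Kirrel1, a nephrin partner at the slit diaphragm, fell by 1.37 ± 0.29 and Lmx1b, a podocyte transcription factor, by 0.97 ± 0.24, both also called without control replicate 4. In all 3 of the 22 podocyte markers fell and 2 rose, with a median of 0.03, near that of all genes. The shares of 13.6% and 9.1% lay below the 25.1% and 20.8% of all genes. Differences in the list ran from -2.08 to 2.06, so the largest rise was about as large as the fall of Synpo.

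Endothelial markers were mostly not called: of 24 tested, 3 fell and 1 rose, with a median of 0.05. The shares of 12.5% and 4.2% lay below the 25.1% and 20.8% of all genes. Differences in the list ran from -1.74 to 0.97. Ehd3, an endocytic protein of glomerular endothelium, read 2.04, 3.83 and 2.10 on the controls and 1.26, 1.01 and 0.46 on day 2. The groups did not overlap, control replicate 4 being the highest array, and Ehd3 fell by 1.74 ± 0.39 (adjusted p = 0.00322; -1.15 without control replicate 4, adjusted p = 0.01). Flt1, a VEGF receptor, fell by 0.85 ± 0.20 (adjusted p = 0.00463), and Tek, the angiopoietin receptor, by 0.70 ± 0.21, calls that scaling to the median removed. Pecam1 (-0.72), Plvap (-0.59), Kdr (0.09) and Cdh5 (0.23) were not called.

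Tubule markers were present in both groups and changed little. All 17 proximal tubule genes tested were well above background on all 6 arrays. On day 2, 1 was higher and 1 lower (5.9% each, against 20.8% and 25.1% of all genes), with a median of 0.13. The summed linear level of these 17 genes, in multiples of the array's 75th percentile, was 1751, 1313 and 1843 on the controls. It was 1396, 1684 and 1880 on day 2, so the groups overlapped. Genes of the loop, distal tubule and collecting duct summed to 407 to 678 on the controls and 397 to 518 on day 2. Of these 14 genes, 2 were lower (14.3%) and none higher. The summed podocyte level was 395 to 501 on the controls and 450 to 505 on day 2.

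Macrophage markers rose together. Of 22 tested, 17 rose and none fell, with a median of 2.29, where 20.8% of all genes were higher and their median was 0.05. Their summed level was 46.9 to 79.2 on the controls and 197 to 348 on day 2, and 19 of 22 had all day 2 arrays above all controls, against 28.0% of all genes. Without control replicate 4, 14 rose and the median was 2.35. On days 1 and 3 the medians against the same controls were 2.32 and 2.95.

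Gpnmb, a transmembrane glycoprotein of activated and lipid-laden macrophages, read -2.76, -3.72 and -4.01 on the controls and 0.94, 2.62 and 1.21 on day 2. Every day 2 array lay far above every control, and Gpnmb rose by 5.09 ± 0.90 (34-fold, adjusted p = 0.00108). Its probe lies at chr4:77182198-77182257 on the + strand and begins with the bases shown here as the largest rise among the cell type markers.
Gpnmb: gtgagctgtgcagaagtacatgactggtag
Cd68, a lysosomal glycoprotein of macrophages, read 0.79, 0.20 and 0.06 on the controls and 2.88, 3.07 and 2.03 on day 2, a rise of 2.31 ± 0.56 (adjusted p = 0.00478). Csf1r, the receptor of macrophage colony-stimulating factor, rose by 1.82 ± 0.38, Adgre1 (F4/80) by 2.45 ± 0.53 and Tyrobp, a signalling adaptor of myeloid receptors, by 2.90 ± 0.55, and all 4 were called without control replicate 4 as well. The genes of complement C1q, which macrophages make, rose by 2.26 (C1qa), 2.45 (C1qc) and 2.71 (C1qb) and lost their calls without control replicate 4. The myeloid transcription factor Spi1 (PU.1) was not well above background on any control and was at least 2.69-fold higher on day 2 (adjusted p = 0.00134). Trem2, Lgals3, Msr1, Cx3cr1 and Lyz2 had differences of 0.82 to 1.52 and did not pass the test.

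Platelet genes formed the other clear cell signal. Of 7 tested, 5 rose and 1 fell (71.4% and 14.3%, against 20.8% and 25.1% of all genes), with a median of 2.53. Without control replicate 4, 4 rose and none fell (median 2.08). The summed level of the 7 was 2.3 to 6.2 on the controls and 16.3 to 45.9 on day 2. Pf4, the platelet chemokine CXCL4, read 1.81, -0.04 and 0.49 on the controls and 4.83, 5.11 and 3.42 on day 2. It rose by 3.70 ± 0.65 (13-fold, adjusted p = 0.00107), with no overlap between the groups. Treml1, a receptor stored in platelet granules, read -1.08, -2.95 and -2.29 on the controls and 1.36, 1.49 and 0.21 on day 2 and rose by 3.12 ± 0.53 (adjusted p = 0.000944). Clec1b, the platelet podoplanin receptor CLEC-2, rose by 3.25 ± 0.60 and Gp1bb, part of the von Willebrand factor receptor, by 2.53 ± 0.51. Itgb3, an integrin subunit that other cells also make, fell by 1.55 ± 0.50 and was well above background on 1 of 3 day 2 arrays. In these 4 rises day 2 replicate 4 was the lowest of the day 2 arrays and control replicate 2 the highest control. The red cell genes did not move with the platelet genes: none of 5 erythrocyte genes was called, and their summed level was 45.3 to 61.2 on the controls and 41.8 to 50.5 on day 2. The Treml1 probe, shown as the example of the platelet signal, lies at chr9:8018241-8018300 on the - strand.
Treml1: gggctctgatctagtatcttggtttggtgg

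Lymphocyte and NK cell genes rose as well, with smaller margins. Of 15 tested, 11 rose (73.3%, against 20.8% of all genes) and none fell (median 1.95). Without control replicate 4, 6 rose, and over the 6 fits without 1 array 4 to 9 rose. The count was 5 without control replicate 5 or day 2 replicate 2 and 4 without day 2 replicate 3. Prf1, the pore-forming protein perforin, read -1.17, -1.29 and -1.85 on the controls and 0.94, 1.30 and 0.34 on day 2, a rise of 2.30 ± 0.67 (adjusted p = 0.0124). The T cell kinase Lck rose by 1.47 ± 0.38, whereas Cd3e (1.29), Cd3d (0.93) and Zap70 (0.76) did not pass the test. On day 1, 3 of the 15 were called higher, and on day 3, 12. Of 11 neutrophil genes named by a probe, 6 were below the filter on dim probes and 5 were tested. Of these 2 rose and 1 fell (40% and 20%, against 20.8% and 25.1% of all genes). Of the 5 differences 4 were positive, and the median was 1.12. Ncf1, an NADPH oxidase subunit, rose by 1.84 ± 0.43, with 2 of 3 controls well above background. Camp, the cathelicidin of neutrophil granules, was called with 1 of 3 controls well above background and lost the call without control replicate 4 (adjusted p = 0.147). Mmp9 fell by 1.62 ± 0.58, a call lost without control replicate 4 (adjusted p = 0.0548), without control replicate 2, without day 2 replicate 2 or 3, and after scaling to the median. S100a8 (1.05 ± 0.57, adjusted p = 0.141) and S100a9 (1.12) were not called. On day 1, 4 of the 5 were called higher and 1 lower.

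The DNA replication machinery was raised almost throughout. Of 35 genes tested, 30 rose and none fell, with a median of 1.57, and without control replicate 4 27 rose with a median of 1.55. Origin licensing genes led the list: Orc1, a subunit of the origin recognition complex, read -5.0, -4.66 and -4.42 on the controls and -1.19, -1.41 and -2.02 on day 2 and rose by 3.15 ± 0.64 (adjusted p = 0.00197), though only 1 control was well above background (2.99 with every value raised to its array's detection limit). The groups did not overlap. Cdc6 and Cdt1, which load the replicative helicase, and Mcm5, a subunit of it, were not well above background on any control and were at least 7.02-, 5.33- and 4.34-fold higher on day 2 (adjusted p = 0.00364, 0.00136 and 0.00271). Mcm3, another helicase subunit and measured on all 6 arrays, read -1.78, -1.87 and -2.15 on the controls and 1.14, 0.87 and 0.35 on day 2, a rise of 2.72 ± 0.52 (adjusted p = 0.00145). Pcna, the sliding clamp of the replication fork, rose by 1.76 ± 0.35 and the thymidine kinase Tk1 by 2.27 ± 0.47. Pole, Mcm4, Rrm2, Dnmt1 and Pola1 were not called, with differences from -0.37 to 1.55. Day 2 replicate 4 was the lowest day 2 array in all of Orc1, Cdc6, Mcm5 and Mcm3.

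Mitotic genes were raised further still. Of 40 tested, 35 rose and 1 fell, with a median of 2.67 (30 and 1 without control replicate 4, median 2.62). Ccnb2, a B-type cyclin that drives entry into mitosis, read -2.57, -3.24 and -2.94 on the controls and 0.87, 0.59 and -0.09 on day 2. It rose by 3.37 ± 0.79 (10.4-fold, adjusted p = 0.00394), with no overlap between the groups. Pbk, a mitotic kinase, rose by 3.95 ± 0.80 with 2 of 3 controls well above background, and Tpx2, a spindle assembly factor, by 3.35 ± 0.60. Mki67, the proliferation antigen Ki-67, read -0.00, -0.71 and -0.69 on the controls and 3.18, 2.79 and 1.87 on day 2, a rise of 3.08 ± 0.68 (adjusted p = 0.00303). Aurkb, the kinase of the chromosomal passenger complex, was at least 5.77-fold higher and Nusap1, a spindle protein, at least 3.78-fold higher, since neither was well above background on any control.

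A few mitotic genes did not follow. Cdc20, the activator of the anaphase-promoting complex, read 1.03, 2.64 and 1.14 on the controls and 1.68, 1.32 and 0.74 on day 2, so the groups overlapped (-0.36 ± 0.48, adjusted p = 0.559). Kif11, a spindle motor, differed by 0.00 ± 0.24. Hmmr fell by 1.96 ± 0.33 on its brighter probe, but its other probe differed by 1.65 in the other direction, so its direction depends on the probe. The first bases of the Mcm5 and Ccnb2 probes are shown as examples of the replication and mitosis signals, at chr19:13992982-13993041 on the + strand and chr8:74896165-74896224 on the - strand.
Mcm5: tgacttcatgcctaccatcttgtcccgatt
Ccnb2: tatcgaagactttgtttatatcacagataa

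The replication and mitosis genes differed in their values on the day before. Against the same 3 controls the replication list had medians of 1.30 on day 1, 1.57 on day 2 and 1.69 on day 3, with 23, 30 and 31 of 35 members called higher. For the mitosis list the medians were 0.57, 2.67 and 2.90, with 1, 35 and 36 of 40 members called higher and 3, 1 and 1 called lower. Genes called higher made up 19.2%, 20.8% and 21.7% of all genes on the 3 days, and genes called lower 20.7%, 25.1% and 26.0%. The direct difference between day 2 and day 1 had a median of 2.10 over the mitosis list and was positive in 39 of 40 members, but only 2 of them passed the test across all genes, Kif11 (1.30, adjusted p = 0.0333) and Incenp, the scaffold of the passenger complex (1.26, adjusted p = 0.043). For Mki67 this difference was 2.32 (adjusted p = 0.14) and for Ccna2 2.15 (adjusted p = 0.251). Against the controls, Kif11 differed by -1.29 on day 1 (adjusted p = 0.00271) and by 0.00 on day 2, so it was low on day 1 and not raised on day 2.

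**Figure D2:**
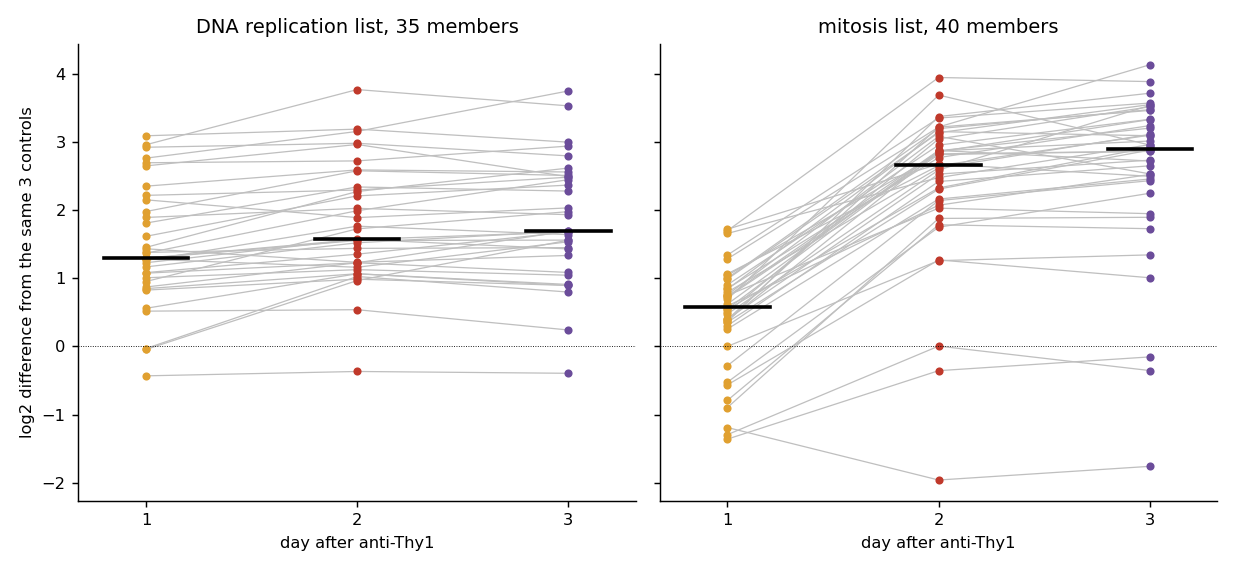
Log2 difference from the same 3 control arrays (vertical axis) on days 1, 2 and 3 after anti-Thy1 for the 35 DNA replication genes (left) and 40 mitosis genes (right), 1 point and line per gene, with the list median as a black bar. The replication medians are 1.30, 1.57 and 1.69 and the mitosis medians 0.57, 2.67 and 2.90; the 3 days share their controls, so the panels are not independent.

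Regulators of the step from G1 to S were raised in part, with 12 of 24 higher (50%), 2 lower (8.3%) and a median of 0.57. E2f8, an E2F repressor that S-phase cells make, read -3.58, -3.86 and -4.33 on the controls and -0.12, -0.73 and -1.45 on day 2 and rose by 3.16 ± 0.65 (adjusted p = 0.00214). Ccne1, the cyclin E that starts S phase, rose by 2.61 ± 0.63 and Ccnd1 (cyclin D1) by 0.94 ± 0.25. E2f1 rose by 2.36 ± 0.47 on its brighter probe, while a dimmer probe differed by -0.17. Among the inhibitors, Cdkn2c (p18) rose by 1.94 ± 0.33 and Cdkn2d (p19) by 1.60 ± 0.31, whereas Cdkn1a (p21) read 2.16, 1.17 and 2.45 on the controls and 1.74, 1.74 and 1.63 on day 2 and Cdkn1b (p27) differed by 0.08. Myc was not called (0.51). Of 20 genes of apoptosis and the DNA damage response, 3 rose and 2 fell (15% and 10%, against 20.8% and 25.1% of all genes). Among them Apaf1, which assembles the apoptosome, rose by 1.19 ± 0.25 and Ccng1 by 0.99 ± 0.20, and Aen fell by 1.25 ± 0.23. Of 16 ribosome biogenesis genes 8 rose (50%) and none fell (median 0.52), among them Fbl (fibrillarin, 0.72 ± 0.17) and Ncl (nucleolin, 0.85 ± 0.22).

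**Figure D3:**
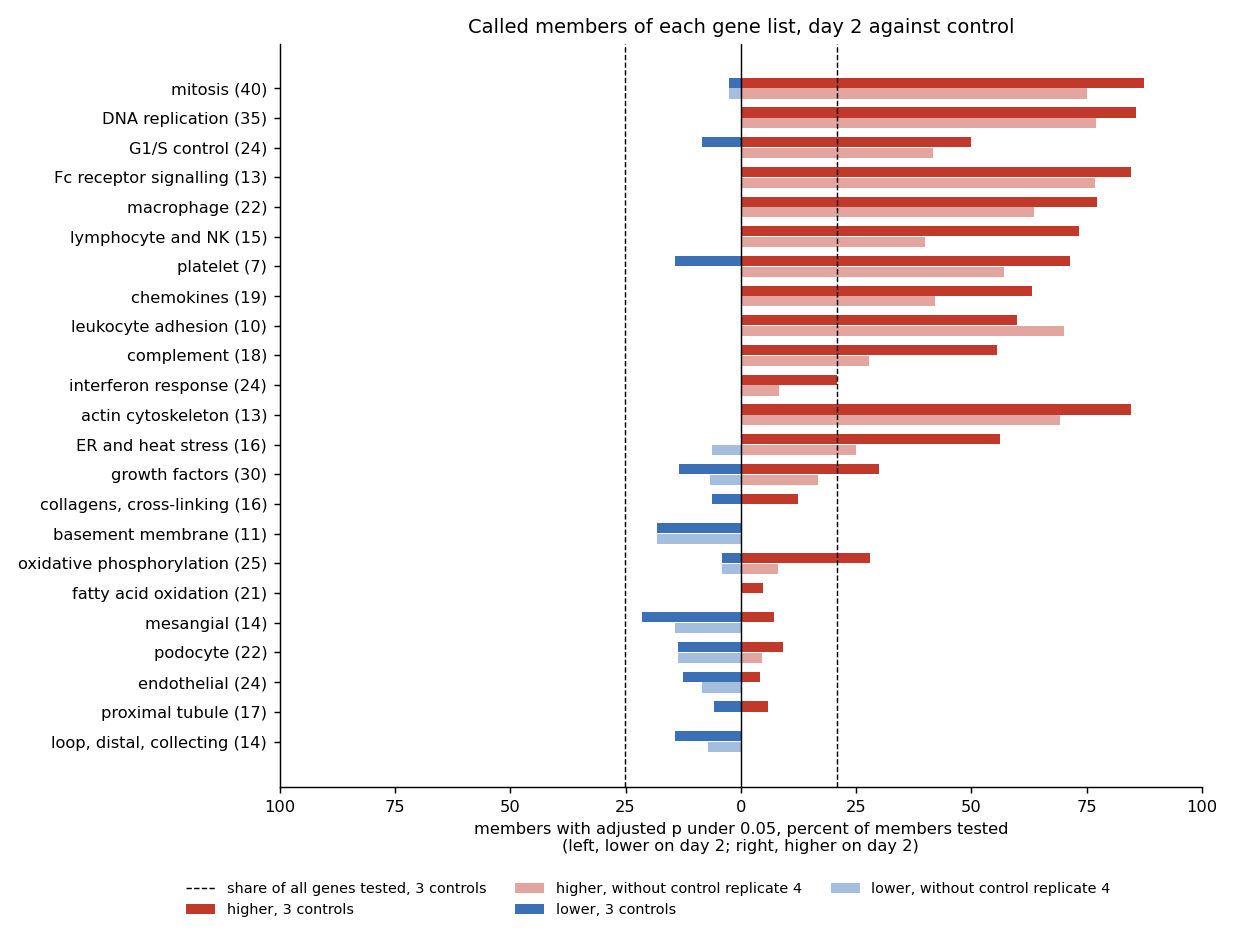
Share of the tested members of 23 gene lists (number tested in parentheses) called at adjusted p under 0.05 on day 2, with members higher to the right in red and members lower to the left in blue; pale bars leave out control replicate 4, and dashed lines mark the shares over all genes with 3 controls, 20.8% higher and 25.1% lower (12% and 18.8% without control replicate 4). Cell cycle, Fc receptor, macrophage and actin lists reach far past the right line, while the mesangial, podocyte, endothelial and tubule lists lie inside both lines.

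Chemokines and leukocyte adhesion molecules were called higher more often than all genes. Of 19 chemokines, 12 rose and none fell (median 1.66), where 20.8% of all genes were higher. Without control replicate 4, 8 were higher, and without day 2 replicate 3, 7. Xcl1, the lymphotactin of T and NK cells, was not well above background on any control and was at least 5.31-fold higher (adjusted p = 0.000528). Ccl20, the ligand of CCR6, read -3.61, -4.24 and -3.95 on the controls and -1.74, -0.32 and -0.88 on day 2, a rise of 2.95 ± 0.57 (adjusted p = 0.00152). Ccl2, the monocyte chemokine MCP-1, read -0.24, -0.96 and -0.29 on the controls and 1.77, 1.74 and 2.41 on day 2. It rose by 2.47 ± 0.47 (5.53-fold, adjusted p = 0.00149), and its value against the same controls was 4.16 on day 1 and 3.36 on day 3. Cxcl12, Cxcl13 and Cxcl11 were not called (-0.55 to -0.40). Of 7 chemokine receptors, 3 rose and none fell, 2 without control replicate 4. Cxcr4, the receptor of Cxcl12, rose by 2.83 ± 0.53, a call that held without control replicate 4.

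Of 10 adhesion molecules, 6 rose (60%, against 20.8% of all genes) and none fell (7 rose without control replicate 4). Sele, the E-selectin that activated endothelium displays to rolling leukocytes, was not well above background on any control and read -0.82, -0.75 and -1.52 on day 2. It was at least 12.2-fold higher (adjusted p = 0.000708), the largest bound of any list member. Vcam1, the ligand of integrin α4, read 2.23, 1.46 and 1.17 on the controls and 3.54, 4.09 and 2.86 on day 2 and rose by 1.88 ± 0.46 (adjusted p = 0.00538). Icam1, the ligand of the β2 integrins, rose by 0.97 ± 0.22 and Itgb2, the β2 chain itself, by 2.43 ± 0.47. The Sele probe lies at chr13:79822442-79822501 on the + strand.
Sele: aaagtgtcccaacttctgaattaactcgtt

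Cytokines were split between interleukin 1 and interleukin 10. Il1b read -1.52, -1.91 and -2.30 on the controls and 0.89, 1.24 and 0.72 on day 2, and rose by 2.86 ± 0.33 (7.24-fold, adjusted p = 0.000314). Il1rn, the receptor antagonist that blocks it, rose by 2.89 ± 0.53 (adjusted p = 0.00123). Il10, an anti-inflammatory cytokine, was well above background on 3 of 3 controls and on none of the day 2 arrays, and was at least 3.12-fold lower (adjusted p = 0.00166), with control replicate 4 the highest control. Csf1, the macrophage growth factor, rose by 0.70 ± 0.16. Il18, Il33, Lif, Il1r1 and Osmr were not called, and the list of 9 had a median of -0.36, which was 0.01 after scaling to the median.

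Complement and Fc receptor genes rose with the macrophage genes. Of 18 complement genes, 10 rose (55.6%, against 20.8% of all genes) and none fell. Without control replicate 4, 5 rose, when 12% of all genes did, and without day 2 replicate 3, 6 rose. C5ar1, the receptor of the anaphylatoxin C5a, read -2.06, -3.34 and -3.83 on the controls and 0.00, 0.16 and -0.39 on day 2, a rise of 3.00 ± 0.49 (adjusted p = 0.000847). The C3a receptor C3ar1 was at least 3.09-fold higher, with no control well above background. C3, the central component, rose by 1.39 ± 0.35. The regulator Cd55 (-0.72) was not called. Of 13 genes of Fc receptors and their signalling, 11 rose and none fell, with a median of 2.28 (10 without control replicate 4). Fcgr1a, the high-affinity receptor of IgG, read 1.88, 1.08 and 0.83 on the controls and 3.74, 3.93 and 3.29 on day 2 and rose by 2.39 ± 0.52. Fcgr2b, the inhibitory receptor, differed by 0.01. These genes are expressed by macrophages, so their counts are not independent of the macrophage list, whose summed level is given above.

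Few interferon-response genes passed the test, although most lay higher on day 2. Of 24, 5 rose and none fell, the same share as over all genes (20.8% higher), with a median of 0.74. The difference was positive in 22 of 24, and 17 of 24 had all day 2 arrays above all controls, against only 28.0% of all genes. After scaling to the median 13 were called higher, when 39.1% of all genes were. The count was 2 without control replicate 4 or without day 2 replicate 2 or 3, 3 without control replicate 5, and 1 with the reference gene scaling. Gbp2, a guanylate-binding protein of the interferon γ response, read 2.69, 2.72 and 2.31 on the controls and 3.94, 4.14 and 3.78 on day 2 and rose by 1.38 ± 0.39 (adjusted p = 0.0103). Isg15 differed by 0.50 ± 0.51 (adjusted p = 0.433), although its 3 day 2 arrays lay above the 3 controls. Against the same controls 4 of the 24 were called higher on day 1 and 20 on day 3, when the median was 1.46. Class II antigen presentation genes rose in 3 of 7 cases (42.9%, against 20.8% of all genes) and in none without control replicate 4. Of 8 genes of the NADPH oxidase, nitric oxide and arginase pathways 5 rose (3 without control replicate 4 and 3 after reference gene scaling), led by Cybb, the catalytic subunit of the phagocyte oxidase (2.56 ± 0.67), whereas Arg1 (0.22) and Arg2 (-0.11) did not pass the test. Among 13 genes of lysosomal proteases and other lysosomal proteins 5 rose (38.5%). Only 1 rose without control replicate 4, and 2 without day 2 replicate 3 or 4 or with quantile or reference gene scaling. Ctss, the cathepsin of antigen-presenting cells, rose by 2.01 ± 0.60 (adjusted p = 0.0135, and 0.054 without control replicate 4). Of 10 eicosanoid genes, Tbxas1 (thromboxane synthase) rose by 1.56 ± 0.42 and the prostaglandin E receptors Ptger1 and Ptger4 fell by 2.29 ± 0.53 and 1.31 ± 0.26, while Ptgs2 (cyclooxygenase 2) was not called (0.93).

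Matrix genes were mostly not called on day 2. Of 16 collagen and cross-linking genes, 2 rose and 1 fell (12.5% and 6.25%, against 20.8% and 25.1% of all genes). None was called without control replicate 4. On day 3, 8 of the 16 were called higher against the same controls. Col8a1 read -4.46, -4.03 and -4.39 on the controls and -0.38, -0.60 and -0.32 on day 2. Its groups lay far apart with little spread, but the fit over all 6 days gave 3.86 ± 1.46 and adjusted p = 0.0421, and 0.093 without control replicate 4. Col3a1 (0.09) and Fn1, the fibronectin gene (0.56), were not called. The α3 and α5 chains of collagen IV, which podocytes make for the glomerular basement membrane, fell: Col4a5 read 3.37, 4.79 and 3.53 on the controls and 2.67, 2.55 and 2.78 on day 2, a fall of 1.23 ± 0.30 (adjusted p = 0.00484), and Col4a3 fell by 1.14 ± 0.27. Both were called without control replicate 4, with smaller differences of -0.79 and -0.93. They were the only calls among 11 basement membrane genes (18.2% lower, against 25.1% of all genes). Col4a4, the α4 chain, was tested and not called. Col4a1, of the mesangial and endothelial network, was not called, and its probes disagreed, with 0.44 ± 0.30 on the brighter and -0.67 ± 0.18 on the other.

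Col1a1, the α1 chain of collagen I, had 3 probes that disagreed. The brightest, used for the gene, differed by 2.11 ± 0.99 (adjusted p = 0.0935), and the others by -0.15 and -0.62. The brightest lies farthest downstream on the + strand, at chr10:83638177-83638236, and the others at chr10:83637956-83638015 and chr10:83637903-83637962. They are shown in that order because no direction can be given for the gene as a whole.
Col1a1 probe 1: aacttagtttttatctttgaccaactgaac
Col1a1 probe 2: gacattggtgccccagaccaggaattcgga
Col1a1 probe 3: aatacaaaaccaccaagacctcccgcctgc
Of 648 list genes tested, 185 had more than 1 probe, and in 58 of them the probes differed in sign. Among the called list genes with more than 1 probe this was so in 17 of 75.

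Proteases and their inhibitors gave a few large differences. Mmp12, the macrophage elastase, rose (adjusted p = 0.00175), with 1 of 3 controls well above background. It read -3.49, -4.97 and -7.06 on the controls and 0.20, 0.09 and -0.69 on day 2, with no overlap. The fitted difference of 5.04 ± 1.00 rests on control values not well above background. With every value raised to its array's detection limit the difference was 4.15 (17.8-fold). Adamts1, a secreted protease of proteoglycans, read -2.25, -3.64 and -3.44 on the controls and -1.68, -1.69 and -1.18 on day 2 and rose by 1.60 ± 0.34 (adjusted p = 0.00246). Thbs1, the matricellular protein thrombospondin 1, went the other way. It read -0.65, 1.18 and -0.08 on the controls and -1.91, -2.78 and -2.53 on day 2, a fall of 2.55 ± 0.49 (adjusted p = 0.00151), or -2.04 without control replicate 4. Timp1 (0.84), Mmp2 (0.74), Plau (0.14) and Spp1 (-0.30) were not called.

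Growth factor genes were called in both directions, 9 of 30 higher (30%) and 4 lower (13.3%) with a median of 0.26. Over all genes 20.8% were higher and 25.1% lower. Without control replicate 4, 5 were higher and 2 lower (median 0.03), without day 2 replicate 3 also 5 and 2, and after reference gene scaling 5 and 7. Grem1, an antagonist of bone morphogenetic proteins, read -0.75, -2.21 and -0.98 on the controls and 0.79, 1.19 and 1.18 on day 2 and rose by 2.37 ± 0.48 (adjusted p = 0.00203). Edn1, which encodes the vasoconstrictor and mesangial mitogen endothelin 1, rose by 1.63 ± 0.37 (adjusted p = 0.00319). Inhba, the activin βA chain, rose by 3.29 ± 0.98 with 3 controls and had adjusted p = 0.052 without control replicate 4, and Inhbb, the βB chain, fell by 1.68 ± 0.31 (adjusted p = 0.00128). Tgfbr3, the coreceptor betaglycan, read 0.06, 1.32 and 0.75 on the controls and -1.59, -2.24 and -1.73 on day 2, a fall of 2.56 ± 0.43 (adjusted p = 0.000867). The mesangial mitogen Pdgfb (-0.68), Tgfb1 (0.91, adjusted p = 0.0621) and Vegfa (-0.31) were not called.

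Stress and cytoskeletal genes rose more often than they fell. Over all genes 20.8% were higher and 25.1% lower, and 12% and 18.8% without control replicate 4. Of 20 immediate early genes, 10 rose and 3 fell (4 and 2 without control replicate 4, and 4 to 14 higher over the 6 fits without 1 array). The number higher was also 4 without day 2 replicate 3 or 4, and 5 without control replicate 5. Fos read -2.73, -3.66 and -3.45 on the controls and -0.08, -0.01 and 0.64 on day 2 and rose by 3.46 ± 0.86 (11-fold, adjusted p = 0.00545). Its relative Fosl1 was at least 3.06-fold higher, while Fosb fell by 0.95 ± 0.26 and Fosl2 by 1.46 ± 0.38. Of 13 actin cytoskeleton genes, 11 rose and none fell, with a median of 1.09. They included genes of leukocytes such as Coro1a (2.10 ± 0.52) and genes that all cells use such as the Arp2/3 subunit Arpc2, which read 1.63, 1.15 and 1.49 on the controls and 2.62, 2.91 and 2.64 on day 2 (1.30 ± 0.18, adjusted p = 0.000528). Of 17 genes of heme, iron and oxidative stress, 7 rose (41.2%) and 2 fell (11.8%). Hmox1, the inducible heme oxygenase, rose by 2.35 ± 0.72 (adjusted p = 0.0164, and 0.057 without control replicate 4), and Blvra, the biliverdin reductase that acts after it, by 0.94 ± 0.17 (adjusted p = 0.00107). Of 16 genes of endoplasmic reticulum and heat stress, 9 rose and none fell, with Hspa5, the chaperone BiP, not called (0.20). Without control replicate 4, 4 rose and 1 fell, and after reference gene scaling 5 rose and 2 fell.

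Genes of fatty acid oxidation stayed near the controls. Of 21 genes of fatty acid oxidation and ketone synthesis, 1 rose and none fell, with a median of 0.18, whereas 9 of the 21 were called lower on day 1 (median -0.54) and 1 on day 3 (median -0.35), when 20.7% and 26.0% of all genes were lower. Creb3l3, a transcription factor of fasting, read 1.94, 2.17 and 2.14 on the controls and 1.86, 1.43 and 2.18 on day 2, so the groups overlapped (-0.26). On day 1 it read -3.89, -2.90 and -3.17, below every array of days 0 and 2. On day 3 replicates 3 and 4 read 1.31 and 1.67, and replicate 2 read -2.83. Pdk4, which blocks the entry of pyruvate into the citric acid cycle, gave the same order, with differences from the controls of 0.12 on day 2 and -4.75 on day 1, against -5.41 for Creb3l3 on day 1. The probes of Pdk4 differed in sign between day 2 and the controls. Creb3l3 was low again on day 4, at -2.07, -1.58 and -1.95. Oxidative phosphorylation genes rose in 7 of 25 cases and fell in 1 (2 and 1 without control replicate 4, 3 and 1 without day 2 replicate 3 or 4, 22 and 1 after scaling to the median). The shares of 28% and 4% stand against 20.8% and 25.1% of all genes. Pfkl, the liver-type phosphofructokinase of glycolysis, read 0.18, 1.50 and 0.37 on the controls and -1.46, -2.10 and -1.87 on day 2 and fell by 2.49 ± 0.37 (adjusted p = 0.0006). The other fall among the glycolysis genes was that of Pdk1, the pyruvate dehydrogenase kinase (-1.06 ± 0.39). Of all 15 glycolysis genes tested 4 rose and 2 fell (26.7% and 13.3%, against 20.8% and 25.1% of all genes). Without control replicate 4, 1 rose and 2 fell, without day 2 replicate 3, 1 and 1, and after reference gene scaling 1 and 4.

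**Figure D4:**
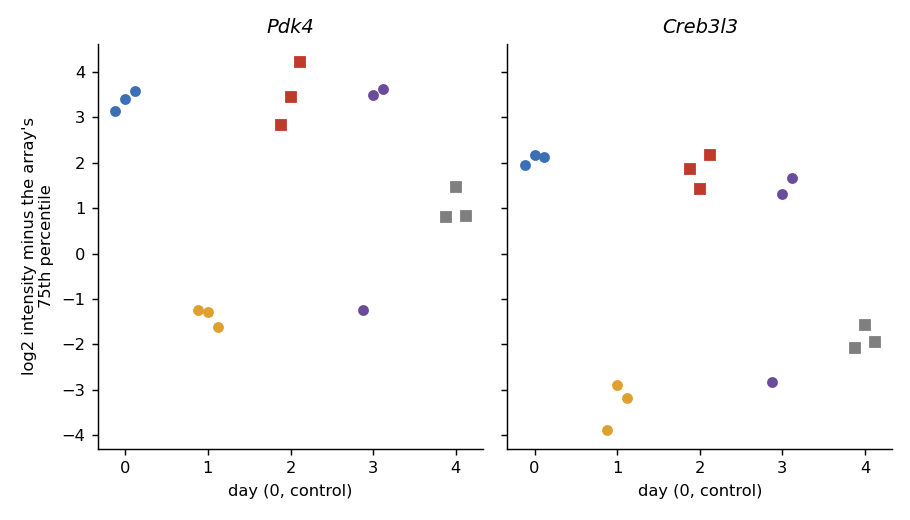
Log2 intensity minus the array's 75th percentile (vertical axis) of Pdk4 and Creb3l3 on every array of days 0 (saline control) to 4, with circles for days 0, 1 and 3 (scan day 1) and squares for days 2 and 4 (scan day 2). The day 2 arrays lie near the controls, most of them just outside the range of the 3 controls. All 3 day 1 arrays and day 3 replicate 2 lie far below the controls. The day 4 arrays lie between the day 1 arrays and the controls.

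Genes usually taken as references were not level: of 12, 7 rose and 1 fell (4 and 1 without control replicate 4), with a median of 0.46. The shares of 58.3% and 8.3% stand against 20.8% and 25.1% of all genes. Ppia (cyclophilin A) read 3.42, 2.87 and 3.52 on the controls and 4.36, 4.57 and 4.50 on day 2 and rose by 1.21 ± 0.21, and Polr2a, the largest subunit of RNA polymerase II, fell by 1.89 ± 0.33 (adjusted p = 0.000992), from 1.06, 2.51 and 1.12 to -0.11, -0.29 and -0.58.

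Outside the lists, the largest rises among named genes measured on all 6 arrays were again mostly cell cycle genes. They ran from 3.08 to 3.73 and included Pimreg, Pclaf (a PCNA-binding factor), Ckap2, the kinetochore genes Spc25, Dsn1, Ska1 and Kntc1, the histone H1f5, the licensing inhibitor Gmnn and Zfp367, with Npy, Apln (apelin), Rps26, C3h15orf48 and Bcl2a1. Of these 15, 14 were called without control replicate 4 (all but Ska1, adjusted p = 0.0634). Among genes dim on all 3 controls, Plk4, the kinase of centriole duplication, was at least 9.23-fold higher, and Ube2t, Fbxo5, Mastl and Cenpm at least 7.16- to 8.14-fold.

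The largest falls were of another kind. They ran from -6.23 to -4.0 and included Nptx1, Pla2g4b, Cox6a2, Zc3h12c, Erbb2, Sh2d5, Camk1g, Vangl2, Mlxip and Bbs9, genes of no common list here, together with Mixl1, Defb50 and the olfactory receptor genes Or9i1b, Or10a2 and Or2d2. Control replicate 4 was the highest control in 15 of these 15, with a median gap of 2.33 to the mean of the other controls. All 15 were nevertheless called without it, but with smaller differences, from -5.76 (Nptx1) to -2.40 (Camk1g). Without it Erbb2 differed by -2.60 instead of -4.37, and Or9i1b by -3.49 instead of -5.39. Among genes dim on all day 2 arrays, Acrv1, a protein of the sperm acrosome, was at least 27.6-fold lower and Lhx4 at least 22.1-fold lower, and Acp4, Or4k5, Slc25a18 and Cst11 were 12.5- to 17.9-fold lower or more. Control replicate 4 was the highest control in 6 of these 6.

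Fewer genes were called between day 2 and its neighbouring days than between day 2 and the controls, which with 3 arrays a group does not show that the days were alike. Against day 1, 90 genes were called (0.388%), 41 higher (0.177%) and 49 lower (0.211%) on day 2, and against day 3, 75 (0.324%), 57 higher (0.246%) and 18 lower (0.0776%). Against the controls, for comparison, 40.0% of genes were called on day 1 and 47.7% on day 3. Single arrays decide much of these counts: without 1 of the arrays compared, 10 to 81 genes were called against day 1 and 7 to 63 against day 3. Against day 1 the count was 20, 11 and 10 without day 2 replicates 2, 3 and 4, and 13 and 20 without day 1 replicates 4 and 5. Against day 3 it was 16, 21 and 7 without the same day 2 replicates and 33 without day 3 replicate 4. The calls lower than on day 1 included Ccl7, a chemokine that draws monocytes, at -2.87, -2.68 and -1.91 on day 2 and 0.24, -0.13 and 1.56 on day 1 (-3.04 ± 0.62, adjusted p = 0.0492), and Havcr1, the tubular injury marker KIM-1, at -3.98, -4.94 and -4.70 on day 2 and -1.56, -2.32 and -0.54 on day 1 (-3.07 ± 0.49, adjusted p = 0.0199). Neither gene's groups overlapped, and Havcr1 was well above background on 1 of 3 day 2 arrays. The Ccl7 call was lost in all 6 fits without 1 array, the Havcr1 call in 3 of 6.

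A set of 29 genes and transcripts differed from days 1 and 3 in the same direction, 19 higher and 10 lower, and all 29 were also called against the controls. In 27 of the 29 the mean of day 4, scanned on the same day as day 2, lay nearer to day 2 than to the mean of days 1 and 3. Krt72, a keratin gene, read -2.56, -2.97 and -2.75 on day 2 and -2.18, -2.48 and -1.75 on day 4, and no array of days 0, 1 or 3 read it well above background; there it read -7.10 to -5.94. Rps26, a ribosomal protein gene, read 2.75, 2.71 and 2.44 on day 2 and 2.40, 2.84 and 2.70 on day 4, against -3.10 to 0.29 on the arrays of days 0, 1 and 3. Tsg101, a component of the endosomal sorting machinery, gave the same order. Aak1, an endocytic kinase, was low on days 2 and 4, with means of -1.28 and -1.19, and lay at 0.00 on day 1 and -0.05 on day 3. The part of scan day in these values was not tested. Or7g89 did not follow this order: it was well above background on all arrays of days 0 and 2 and on no array of days 1, 3 and 4.

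**Figure D5:**
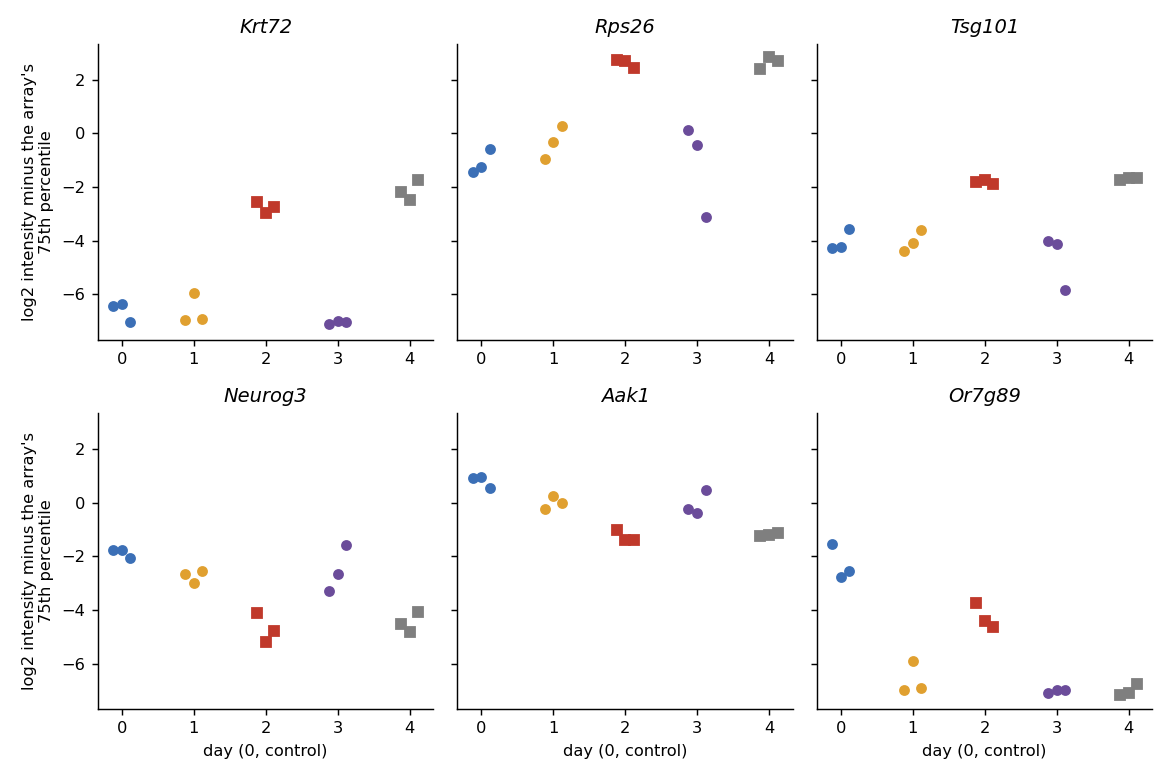
Log2 intensity minus the array's 75th percentile (vertical axis) of 6 genes that differed between day 2 and both neighbouring days, on every array of days 0 (saline control) to 4, with circles for scan day 1 and squares for scan day 2. Krt72, Rps26 and Tsg101 are high and Neurog3 and Aak1 low on both days scanned on scan day 2, and Or7g89 is between its control and its day 4 values on day 2.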

How the data were processed

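The files are scanner tables of 18 one-colour arrays. Spot intensity was background-subtracted and processed by the scanner software (Feature Extraction 10.7.3.1, build rn4) per the file headers. A deposited table of log2 values by the authors served as an alternative. Its column medians were 5.49 for days 0, 2 and 4 and 5.31 for days 1, 3 and 5. Its order of probes on an array was that of the processed intensity, and nothing used here states how it was centred or normalized.

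From the processed intensity, log2 values were taken, spots of a probe averaged without control spots and outlier flags, and the array's own 75th percentile (control spots left out) subtracted. Of 41012 probes, 27833 were well above background on all 3 arrays of at least 1 day. Each gene was represented by its brightest probe. limma 3.58.1 (R 4.3.3; lmFit and eBayes, 6 groups, 12 residual degrees of freedom) tested 23183 genes and transcripts with Benjamini-Hochberg adjustment, and the script was tested on simulated data. Tables were made with Python 3.11.15 and pandas 2.3.3. Names came from accessions and symbols matched to RefSeq (21786 of 41012 probes), and 12276 of the genes tested had a current symbol.

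Array values are given for up to 4 called members of each list with the largest difference and for members shown as not called. Those of Cd68, Mki67, Mcm3 and Arpc2 were added after their values were seen. Outside the lists the 15 largest rises and falls, up to 6 bounds each way and the 5 largest differences each way from days 1 and 3 were named. The comparison, its members and its lists were chosen with earlier results of these data known. Replicate numbers were not used as pairs in the main fit. Deviations of same-numbered arrays correlated at -0.25 and -0.21 between days 2 and 0. The values were -0.05 with day 1 and -0.02 to 0.14 with day 3. Arrays of different numbers were not compared in this way, so a pairing is not excluded. Some genes that this rule selects are not reported here.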

Additional observations from a re-analysis of the deposited data

Results flagged for a closer look

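These genes differed between day 2 and a neighbouring day by a direct test of that difference (limma, adjusted p under 0.05). Day 2 was scanned on another day than days 1 and 3, so scan day and time point cannot be told apart in these differences. The rule reads the change from the controls on each day, and the days share those controls, so the difference between days is the value given.

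Against day 1, Havcr1 differed by -3.07 (1 of 3 day 2 arrays well above background), Ccl7 by -3.04 and Ccno by -2.84. Lrrc10 and Il24 were not well above background on any day 2 array and were at least 3.66- and 3.15-fold lower than on day 1, where Il24 was well above background on 2 of 3 arrays. Higher on day 2 were Creb3l3 by 5.14 and Pdk4 by 4.87, and Krt72, not well above background on any day 1 array, was at least 2.97-fold higher. Of the list members, Angptl4, a lipase inhibitor induced by fasting, was higher by 3.41, Kif11 by 1.30 and Incenp by 1.26. Of the first 8 genes, the call of Krt72 held in all 6 fits without 1 array, those of Ccl7 and Pdk4 in 0 of 6, and the others in 1 to 3 of 6.

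Against day 3, Neurog3 differed by -2.18 (1 of 3 day 2 arrays well above background), Scgb1a1 by -1.45 and Aak1 by -1.23. Or10d1 and Ly6g6d were not well above background on any day 2 array and were at least 1.46- and 1.63-fold lower. Higher on day 2 were Rps26 by 3.77, Tsg101 by 2.85 (2 of 3 day 3 arrays well above background), Kcng1 by 2.06 and the respiratory chain gene Cox7c by 1.32. Krt72 and Or7g89 were not well above background on any day 3 array and were at least 3.99- and 1.403-fold higher. Krt72 and Or7g89 were called in 6 of 6 fits without 1 array, Or10d1 and Ly6g6d in 0 of 6. Day 4 was scanned on the same day as day 2. Of the genes flagged against day 1, the day 4 means of Ccno (0.16), Havcr1 (-4.48), Ccl7 (-2.59), Krt72 (-2.14) and Kif11 (-0.46) lay nearer to day 2. So did those of Lrrc10 and Il24, which were dim on most day 4 arrays. The means of Creb3l3 (-1.87), Angptl4 (-2.37), Pdk4 (1.03) and Incenp (-0.30) lay nearer to day 1. Of the genes flagged against day 3, all but Or7g89 (-7.02) lay nearer to day 2, among them Kcng1 (-0.83) and Cox7c (4.17). The part of scan day was not tested.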

How the results depend on the processing

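The count of genes changed against the controls moved from 10650 to 1487, and that of list members from 307 to 89, with a normexp background correction. Leaving 2 arrays of compressed values out of that fit, an alternative chosen after seeing the data, gave 14064 and 364. Over the other alternatives the counts were 7938 to 12927 and 243 to 405, and without 1 array 7136 to 10858 and 210 to 311. Differences that turned with normexp, in both of its fits, were Trpc6 (-0.11), Itgam (-0.14), Cd79b (-0.019), Gins2 (-0.11), Polr1b (-0.0039), Ccr1 (-0.041), Ciita (-0.41) and Egr2 (-0.14), and Plod2 (0.13) with the mean over its probes; the cause was not tested. Of these, Trpc6, Itgam, Gins2, Ccr1 and Egr2 were not well above background on any control. Of 180 named genes, 42 lost their call without control replicate 4 and 19 with the replicate number as a block. That block left 7938 genes (243 list members) called against the controls, 2 against day 1 (from 90) and 10 against day 3 (from 75). Without 1 array, 10 to 81 were called against day 1 and 7 to 63 against day 3. The number of arrays and probes not well above background limit the dim genes, for which bounds are given.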
